A study of Mus musculus with 37 samples.

Results

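The genes described here are the collagen chains and the small leucine-rich proteoglycans of the mouse brain, the fibrous matrix of its meninges and vessel walls. Every probe set with a single gene symbol made of Col, a number, the letter a and a number was taken, together with those of Dcn, Lum, Bgn, Ogn, Fmod, Omd and Prelp. This gave 53 probe sets for 51 genes, 44 collagen chains and 7 proteoglycans, of 19938 genes measured. Col6a5 and Col6a6 had 2 probe sets each, of which the brighter was used. RNA came from 8 male F1 C57BL/6N:129Sv hybrid mice, from olfactory bulb and cortex at the front and from cerebellum and brain stem at the back of the brain. Their age is not in the labels. The 2 df/+ mice carried 1 copy of the mouse segment that corresponds to human 16p11.2, the 3 +/+ mice had 2 copies, and the 3 dp/+ mice had 3 copies. All groups shared the hybrid background and male sex, and the engineered deletion or duplication was heterozygous. There were 37 arrays of 31 region samples, because 6 samples were hybridised 2 times and the cortex of dp/+ mouse 3 was not analysed here. Each mouse counted once per region.

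Collagens are trimers wound from 3 alpha chains. Fibril-forming chains such as those of types I and III build the fibrils of the leptomeninges and of the vessel adventitia, and type IV chains build the sheet under endothelium and at the brain surface. Fibril-associated, beaded, short-chain network, multiplexin and transmembrane collagens decorate these structures or carry their own functions, as Col25a1 does on neurons. The proteoglycans coat fibrils and set their width and spacing. Decorin (Dcn) and biglycan (Bgn) bind fibrils and growth factors, lumican (Lum) and fibromodulin (Fmod) compete for one site on type I collagen, and prolargin (Prelp) ties fibrils to basement membrane. Osteoglycin (Ogn) and osteomodulin (Omd) are named for bone, where they were found, and are also made by fibroblasts of the meninges. In whole tissue, fewer matrix-making cells and less messenger per cell cannot be told apart.

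Signals are on the log2 scale of the array, on which 1 unit is a doubling, and brightness differs between probe sets, so levels are compared between samples and not between genes. The median SD between arrays of 1 sample was 0.07 for these genes, against 0.10 between mice of 1 genotype and region (0.06 and 0.10 over all genes). Of the 51 members, 18 were brighter than the median of all genes in some region of +/+ mice, a level that 55.1% of all genes reached. The 44 collagen probe sets lay between 5.93 and 8.41 in +/+ mice, a range that holds 7120 of the 19938 genes, so most collagens were read in the dimmer part of the array, where a change in messenger is understated. Of 14 measured markers of the 4 regions, 13 were highest in the region they mark.

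The proteoglycans differed between regions of the +/+ brain in larger share than the collagens. All 7 passed an F test over regions (limma, mouse as a fixed block, Benjamini-Hochberg adjusted p below 0.05 over all genes), as did 17 of the 44 collagens. Together this is 24 of 51 members, or 47.1%, where 58.0% of all genes passed, so the share among the members was below that among all genes. The median distance between a gene's highest and lowest region was 0.68 for the proteoglycans, 0.26 for the collagens and 0.36 for all genes. The difference between proteoglycans and collagens was not itself tested. Of the 7 proteoglycans 5 were highest in the olfactory bulb and 2, Lum and Prelp, in the cerebellum, and 4 were lowest in the brain stem.

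Bgn had the widest regional range of all the members. Its log2 values in the olfactory bulb of the 3 +/+ mice were 11.05, 10.71 and 11.03. Cortex samples read 9.40, 9.64 and 9.58, cerebella 9.50, 9.62 and 9.57, and brain stems 9.24, 9.20 and 9.72. Every bulb was above every other sample, and the bulb exceeded the mean of the other regions by 1.44 (95% interval 1.23 to 1.64, adjusted p = 7.28e-09). The other 3 regions overlapped one another. Ogn was 9.22 ± 0.11 in the bulb (SD, n = 3) and 8.19 ± 0.34 in the brain stem, with the cortex (8.49 ± 0.44) and cerebellum (8.54 ± 0.22) between them, and its bulb exceeded the rest by 0.81 (adjusted p = 0.000601). Its neighbour Omd had the same highest and lowest region, with 5.79 ± 0.22 in the bulb and 5.15 ± 0.09 in the brain stem. Fmod went from 9.53 ± 0.15 in the bulb to 8.57 ± 0.42 in the brain stem. Dcn was 11.26 ± 0.27 in the bulb and between 10.67 and 10.89 on average in the other regions, which overlapped.

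Lum and Prelp ran the other way. Lum was 6.65, 6.61 and 6.57 in the cerebellum of the +/+ mice and no higher than 6.34 in any other +/+ sample, a difference of 0.57 between the cerebellum and the rest (adjusted p = 0.000100). Prelp was lowest in the bulb, at 8.88, 8.85 and 9.17, against 9.29 or more in the 9 other samples. Its difference there was -0.54 (adjusted p = 6.77e-05). The proteoglycans therefore formed no single regional pattern.

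Among collagens, 17 of 44 differed between regions, and they were spread over the classes. Of the fibril-forming chains 4 of 11 passed, of the basement membrane chains of type IV 0 of 6, of the beaded and anchoring chains 2 of 8, of the fibril-associated chains 4 of 9, of the short-chain network chains 2 of 3, of the multiplexins 1 of 2, and of the transmembrane chains 3 of 4. Col26a1, which belongs to none of these classes, also passed. At an unadjusted p below 0.05, 28 of the 51 members passed, where 62.3% of all genes did.

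In the olfactory bulb 13 members were higher and 4 lower than in the other regions (17 of 51, or 33.3%, against 36.5% of all genes). After Bgn, the member with the smallest p of those higher there was Col6a1, a chain of the beaded microfibrils of type VI collagen. The bulbs read 8.71, 8.78 and 8.75, the cortices 8.50, 8.39 and 8.60, the cerebella 7.80, 7.77 and 7.62, and the brain stems 7.72, 7.62 and 7.86. The bulb lay above the cortex, and the cortex above the 2 hindbrain regions, without overlap. Col12a1, a fibril-associated chain, was 8.25 ± 0.15 in the bulb and 7.53 to 7.65 on average elsewhere. The largest decrease in the bulb was that of Col8a1, a short-chain network collagen, with 6.91 ± 0.15 there and 8.09 ± 0.05 in the cerebellum.

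In the cerebellum 7 members were higher and 8 lower (15 of 51, or 29.4%, against 39.0% of all genes). Col18a1, whose cut end is endostatin, was 8.21, 8.12 and 8.30 there and at most 7.74 elsewhere, a difference of 0.73 (adjusted p = 5.94e-07). Col8a1 exceeded the rest by 0.71, Col19a1 by 0.45 and Col1a2, the second chain of type I collagen, by 0.40. Col1a1, the partner of Col1a2, differed by only 0.11 (adjusted p = 0.253). Col25a1, a neuronal transmembrane collagen whose shed part is found in amyloid plaques, was 7.17 ± 0.12 in the cerebellum and 7.24 ± 0.11 in the bulb, but 8.44 ± 0.10 in the cortex, with 8.23 ± 0.23 for brain stem. Its cortex was 0.90 above the rest.

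In the cortex 2 members, Col25a1 and Col6a1, were higher and 11 lower (13 of 51, or 25.5%, against 34.7% of all genes). Of the 44 collagens, 27 had their lowest mean in the cortex, most by small margins. In the brain stem 3 members were higher and 6 lower (9 of 51, or 17.6%, against 30.2% of all genes), and Bgn, Fmod, Omd and Ogn were 4 of the 6. The type IV chains were the flattest class. Col4a1 was lowest in the cerebellum, at 7.44 ± 0.05, against 7.69 ± 0.06 (bulb), 7.64 ± 0.07 (cortex) and 7.61 ± 0.09 (brain stem), and its F test missed the threshold (adjusted p = 0.0601). Col24a1 was the single member among the 15 with the smallest p whose regional call was lost when a mouse was left out (adjusted p = 0.0582 without +/+ mouse 2).

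**Figure D1:**
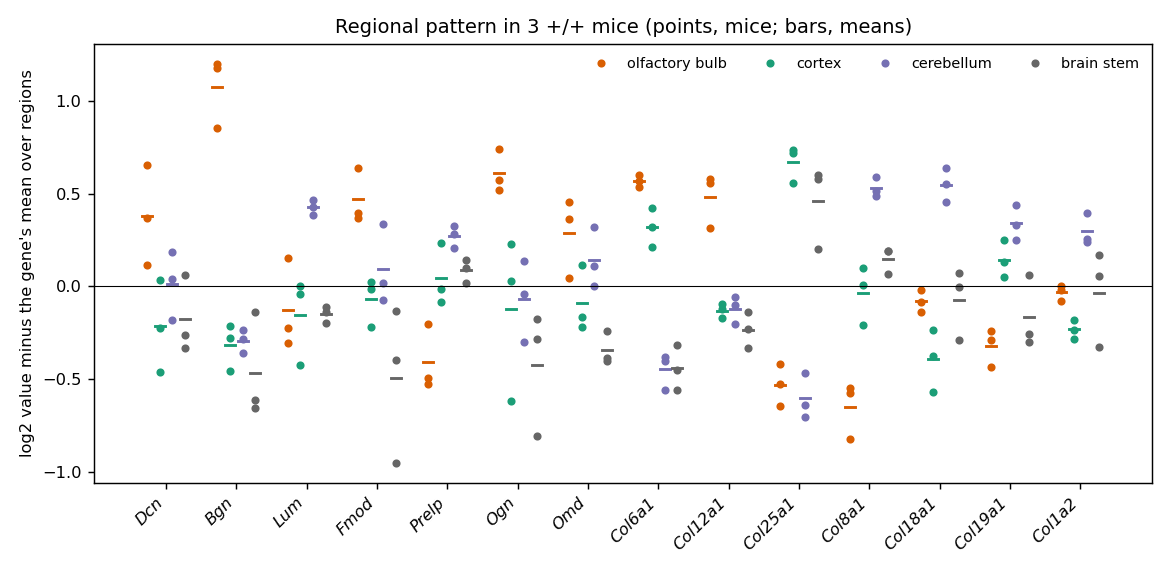
Log2 value minus the gene's own mean over 4 regions (vertical axis) for the 7 proteoglycans and 7 regional collagens in the 3 +/+ mice; points are mice, bars are means and colours are regions. Bgn, Ogn, Fmod, Col6a1 and Col12a1 stand highest in the olfactory bulb, Lum, Prelp, Col8a1, Col18a1, Col19a1 and Col1a2 in the cerebellum, and Col25a1 in the cortex.

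Genes that make, hold or bind this matrix were tested for regions in the same way. Of 24 measured genes of collagen synthesis and processing 19 passed the F test, of 14 laminins and other basement membrane partners 10, of 13 interstitial matrix partners 8 and of 10 collagen receptors 7, where 58.0% of all genes passed. In the bulb, where 15.3% of all genes were higher, 7 of the 13 interstitial partners were, among them Postn (periostin) by 1.37 and Fbln2 (fibulin 2) by 1.34, and Lama3, a laminin chain, was higher by 1.48. Marker genes of other cells were regional too. Of 16 markers of meningeal fibroblasts 8 were higher in the bulb (Islr by 2.18, Slc22a2 by 1.33 and Slc13a3 by 1.02) and 10 were lower in the brain stem, where 14.3% of all genes were. Of 7 markers of olfactory ensheathing cells 5, and of 6 markers of nasal mucosa 5, were also higher in the bulb. All 8 markers of the choroid plexus were higher in the cerebellum, among them Otx2 by 2.21, as were 20.9% of all genes, and 7 of the 8 were lower in the bulb, as were 21.2%. The part of these cells in the regional levels was not tested.

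Promoter sequence was at hand for 40 of the 51 members, from RefSeq on GRCm38.p6. The 250 bases before the start are shown for Bgn and Col6a1, which were highest in the bulb, and for the neighbours Ogn and Omd on chromosome 13, with no protein-coding gene between them. Capitals mark 3 motifs searched on both strands, the GC box GGGCGG, the CCAAT box and the TATA motif TATAAA, with overlapping matches kept.
Bgn (chrX:73483351-73483600, plus strand): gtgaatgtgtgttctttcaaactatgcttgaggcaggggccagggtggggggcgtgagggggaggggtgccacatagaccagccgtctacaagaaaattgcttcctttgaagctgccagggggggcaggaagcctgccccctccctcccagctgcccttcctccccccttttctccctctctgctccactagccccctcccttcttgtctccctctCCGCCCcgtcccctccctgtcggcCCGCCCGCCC
Col6a1 (chr10:76726045-76726294, minus strand): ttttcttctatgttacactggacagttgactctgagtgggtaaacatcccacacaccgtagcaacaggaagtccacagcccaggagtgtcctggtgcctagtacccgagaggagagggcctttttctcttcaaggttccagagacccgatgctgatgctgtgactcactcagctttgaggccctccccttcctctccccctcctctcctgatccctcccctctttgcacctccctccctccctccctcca
Ogn (chr13:49607765-49608014, plus strand): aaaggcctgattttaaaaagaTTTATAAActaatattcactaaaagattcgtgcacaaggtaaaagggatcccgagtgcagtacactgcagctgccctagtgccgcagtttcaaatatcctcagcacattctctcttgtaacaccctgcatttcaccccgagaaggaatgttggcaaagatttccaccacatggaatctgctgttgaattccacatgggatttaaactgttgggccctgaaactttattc
Omd (chr13:49582212-49582461, plus strand): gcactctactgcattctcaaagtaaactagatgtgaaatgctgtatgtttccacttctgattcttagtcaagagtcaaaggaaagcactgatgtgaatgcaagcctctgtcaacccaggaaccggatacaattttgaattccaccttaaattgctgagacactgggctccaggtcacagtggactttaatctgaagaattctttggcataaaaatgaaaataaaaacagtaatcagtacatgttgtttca
Bgn holds 3 matches to the GC box GGGCGG, all in reverse orientation (CCGCCC), at 34, 10 and 6 bases before the start, and 64.4% of its bases are G or C. Col6a1 and Omd hold none of the 3 motifs in this window. Ogn holds TATAAA on both strands in overlapping positions, the forward match at 227 bases before the start, and its window has 42.0% G or C against 38.4% for Omd. The 2 neighbours thus share low GC content and, among these motifs, nothing else. GGGCGG was found in 23 of 43 member windows (53.5%) and in 32.7% of all 32851 windows, CCAAT in 32.6% and 33.8%, and TATAAA in 14.0% and 12.4%.

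The comparison of df/+ with +/+ mice asked whether loss of 1 copy of the interval goes with a change in matrix genes. None of the 51 members passed (limma), where 0.115% of all genes did, and 4 had an unadjusted p below 0.05, as had 6.75% of all genes. All 7 proteoglycans nevertheless had differences below 0, with a median of -0.16, against a median of -0.01 over all genes, 42.9% of which were above 0. The collagens did not share this direction, with 31 of 44 (70.5%) above 0 and a median of 0.02. Of all genes in their brightness range 47.2% were above 0 (median -0.01). Across the brain, values were averaged over a mouse's regions as differences from the +/+ mean of each region. Dcn was -0.22 and -0.33 in the 2 df/+ mice against -0.0041 to 0.0028 in the 3 +/+ mice, an estimate of -0.27 ± 0.07 (SE, adjusted p = 0.442). Bgn was -0.22 and -0.53 against -0.06 to 0.12 (-0.37 ± 0.11, adjusted p = 0.529). Lum was -0.18 and -0.33 against -0.09 to 0.10 (-0.26 ± 0.07, adjusted p = 0.509). In each of the 7 proteoglycans the higher df/+ value was under the lowest +/+ value. The margin was narrow for Prelp, with -0.077 and -0.17 in df/+ against -0.069 to 0.035 in +/+ mice. The share of all genes separated in this way was not counted. Some marker lists of other cells were also lower in both df/+ mice across the brain than in any +/+ mouse. The 16 meningeal fibroblast markers stood at -0.087 and -0.072 (-0.035 to 0.028 in +/+ mice) and the 6 smooth muscle markers at -0.14 and -0.090 (-0.037 to 0.054). The 6 nasal mucosa markers stood at -0.31 and -0.33 (-0.076 to 0.072) and the 8 choroid plexus markers at -0.59 and -0.24 (-0.19 to 0.15). The choroid plexus list was below every +/+ mouse in the dp/+ mice too (-0.22, -0.40 and -0.26). Pericyte and olfactory sensory neuron lists were also lower in both df/+ mice. Among matrix lists, interstitial partners were too (-0.097 and -0.083, against -0.024 to 0.013 in +/+ mice). So was collagen synthesis and processing (-0.060 and -0.065, against -0.016 to 0.024). Basement membrane partners, collagen receptors and other leucine-rich proteoglycans were not. The endothelial, ensheathing cell, cartilage and bone, astrocyte, neuron, microglia and blood cell lists were not lower in both df/+ mice either. The part of these cells in the proteoglycan values was not tested.

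The largest of these differences were in the olfactory bulb, where 0 of 51 members passed (2 at an unadjusted p below 0.05, limma). Of all genes 0.291% passed there, and 10.7% had an unadjusted p below 0.05. Bgn was 10.28 and 10.32 in the df/+ bulbs, 11.05, 10.71 and 11.03 in the +/+ bulbs, and 10.60, 10.93 and 10.42 in the dp/+ bulbs. Both df/+ bulbs were below the 6 others, and the difference from +/+ was -0.63 ± 0.17 (SE), or 64.7% of the +/+ level, at an adjusted p of 0.125. Dcn was 10.69 and 10.68 in the df/+ bulbs and 11.00 or more in the other 6, with a difference of -0.58 ± 0.17 (adjusted p = 0.158). Among partner genes Postn fell by 0.74 in the df/+ bulb (adjusted p = 0.00129). In the same 2 bulbs, 4 of 6 nasal mucosa markers fell, where Scgb1c1 fell by 1.92 and Cyp2g1 fell by 2.17, and the mean of that list stood at -1.01 and -1.27 relative to +/+, against -0.26 to 0.13 in the other 6 bulbs. The 6 markers of vascular smooth muscle stood at -0.43 and -0.16, and the 16 of meningeal fibroblasts at -0.11 and -0.08, against -0.07 to 0.05 in the other bulbs. The part of these tissues in the values of Bgn and Dcn was not tested.

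In the other regions of df/+ mice no member passed either. Cortex gave 0 of 51 (1 at an unadjusted p below 0.05) against 0.100% of all genes, cerebellum 0 (5 unadjusted) against 0.0702%, and brain stem 0 (1 unadjusted) against 0.211% (limma in each). The unadjusted shares of all genes were 6.01% in cortex, 8.78% in cerebellum and 4.17% in brain stem. Lum had the smallest p in the cerebellum, with 6.33 and 6.07 in df/+ against 6.57 to 6.65 in +/+ mice (-0.41 ± 0.14, adjusted p = 0.392). It also had the smallest p in the brain stem, with 5.54 and 5.71 against 5.99 to 6.07 (-0.41 ± 0.14, adjusted p = 0.588). In both regions the df/+ and +/+ samples of Lum did not overlap. In the cortex they did, with 6.23 and 5.95 against 5.76 to 6.18.

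The comparison of dp/+ with +/+ mice asked the same of an added copy. Across the brain 0 of 51 members passed (limma), where 1.86% of all genes did, and 26 had an unadjusted p below 0.05, as had 23.7% of all genes. Here the collagens leaned upward and the 7 proteoglycans, most of them read from brighter probe sets, did not. Of the 44 collagens 42 had a difference above 0, with a median of 0.15, and of the 7 proteoglycans 3 did, with a median of -0.02. The 9 lowest of the 51 differences were those of the 7 proteoglycans with Col12a1 and Col8a1. The 9 measured members of a list of other leucine-rich proteoglycans, Nyx among them, were all above 0, with list means of 0.15, 0.13 and 0.12 in the 3 dp/+ mice against -0.048 to 0.048 in +/+ mice. Col6a1 was 0.31, 0.29 and 0.13 in the 3 dp/+ mice against -0.04 to 0.03 in +/+ mice, an estimate of 0.24 ± 0.06 (SE, adjusted p = 0.0554). Col3a1, the chain of type III collagen, was 0.28, 0.31 and 0.31 against -0.15 to 0.15 (0.30 ± 0.07, adjusted p = 0.0560). Col1a1 was 0.20, 0.28 and 0.15 against -0.09 to 0.07 (0.21 ± 0.06, adjusted p = 0.0828). In each of these 3 genes, named for their small p, all dp/+ mice lay above all +/+ mice. Other collagens, such as Col9a1, Col4a1 and Col6a6, separated too, and the share of all genes that did was not counted. The count of members past the threshold was 5 without +/+ mouse 1 (3.78% of all genes), 1 without dp/+ mouse 3 (0.697%) and 0 without any other single mouse. It was 15 with the brain stem left out (9.71% of all genes).

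The lean can be set beside the brightness of the probe sets, with which differences over all genes also ran. Over all genes the median difference was -0.01 and 47.8% were above 0. Counted in deciles from the dimmest, 4 of the 44 collagens lay in the third decile, 16 in the fourth, 18 in the fifth and 6 in the sixth. Over all genes of these deciles the median difference was 0.10 with 84.4% above 0 in the third, 0.07 with 72.3% in the fourth, -0.02 with 43.4% in the fifth and -0.07 with 23.5% in the sixth. Col3a1 lay in the fourth decile, and Col1a1 and Col6a1 in the sixth. Over the 7120 genes within the brightness range of the collagens the median was 0.04 and 59.9% were above 0. Cyclic loess between arrays left a collagen median of 0.12 and quantile normalisation within regions 0.14, and 45 of the 51 members were above 0 under either, as on the deposited scale. How much of the collagens' difference belongs to brightness was not tested.

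**Figure D2:**
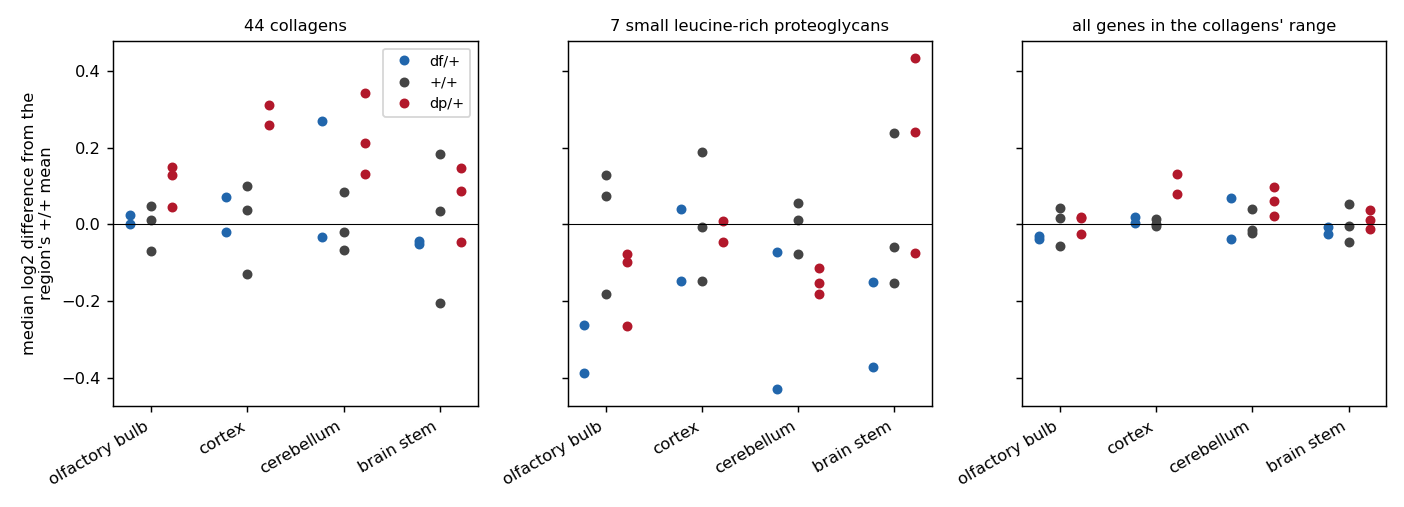
Median log2 difference from the region's +/+ mean (vertical axis) in each of the 31 samples, over the 44 collagens, the 7 proteoglycans and all 7120 genes in the brightness range of the collagens; points are mice and colours are genotypes. Collagen medians lie above 0 in 10 of 11 dp/+ samples and proteoglycan medians below 0 in 7 of 8 df/+ samples, and the +/+ samples spread on both sides.

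The sample medians show that many collagens were high or low together in single samples, wild-type ones included. In the brain stem of +/+ mice 40 of 44 collagens were above the group mean in mouse 1 (median 0.18) and 3 of 44 in mouse 2 (median -0.21), although both are wild type. In the cerebellum of df/+ mice the collagen median was 0.27 in mouse 2 and -0.03 in mouse 1. Over all genes in the brightness range of the collagens the medians were 0.05 and -0.05 in those 2 brain stems. In the df/+ cerebella they were 0.07 in mouse 2 and -0.04 in mouse 1. The medians in the cerebellum of dp/+ mice were 0.34, 0.13 and 0.21, against -0.07 to 0.08 in +/+ mice, and in the cortex 0.26 and 0.31 against -0.13 to 0.10. In both regions the collagen median of every dp/+ sample was above that of every +/+ sample. Over all genes in that brightness range the cortex gave 0.08 and 0.13 in dp/+ mice against -0.003 to 0.01, also without overlap. The cerebellum gave 0.10, 0.02 and 0.06 against -0.02 to 0.04, which overlapped. In the brain stem the dp/+ collagen medians, from -0.05 to 0.15, lay inside the +/+ range.

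The proteoglycan medians did not follow those of the collagens. In the cerebellum they were -0.18, -0.15 and -0.11 in dp/+ mice while the collagen medians were above 0. In the bulb they were -0.26 and -0.39 in df/+ and -0.08 to -0.27 in dp/+ mice, against -0.18 to 0.13 in +/+ mice. In the brain stem they ran from -0.37 in df/+ mouse 1 to 0.43 in dp/+ mouse 3. By brightness Ogn, Fmod, Prelp, Bgn and Dcn lay in deciles 6, 7, 8, 9 and 10, and Omd and Lum in deciles 2 and 3. Over all genes of deciles 6 to 10 the median differences in the dp/+ cerebellum were -0.14, -0.16, -0.14, -0.12 and -0.06. In deciles 2 and 3 they were 0.14 and 0.16. How much of the proteoglycan medians belongs to brightness was not tested.

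**Figure D3:**
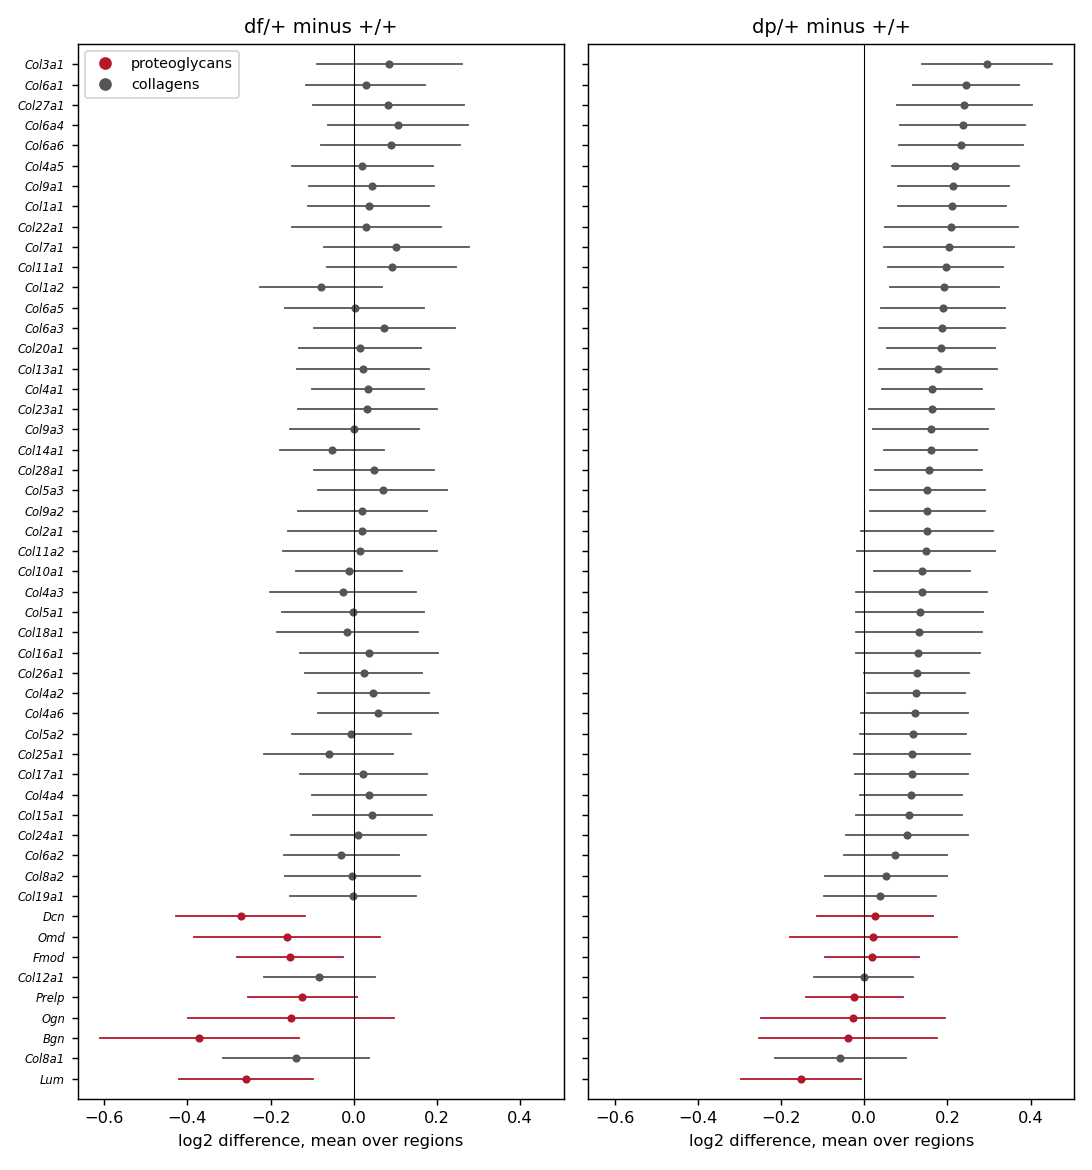
Log2 difference from +/+ mice averaged over regions (horizontal axis, points with 95% intervals) of all 51 members in df/+ (left) and dp/+ (right) mice, ordered by the dp/+ difference; proteoglycans are in red. The 7 proteoglycans are all below 0 in df/+ mice and are among the 9 lowest in dp/+ mice, and 42 of 44 collagens are above 0 in dp/+ mice.

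A slope on log2 copies over all 3 genotypes, in which 1 would be proportional to copy number, was above 0 for all 51 members, from 0.02 to 0.21 with a median of 0.08. None passed (limma), where 0.110% of all genes did, and 8 had an unadjusted p below 0.05, as had 6.87% of all genes. Over all genes 59.5% of slopes were above 0 with a median of 0.01, and by decile of brightness 86.9% were in the third, 78.2% in the fourth, 59.2% in the fifth and 44.8% in the sixth, which hold 5, 16, 18 and 7 of the 51 members. The 2 classes reached their slopes from opposite ends, the proteoglycans from low values in df/+ mice and the collagens from high values in dp/+ mice. The slope of Dcn was 0.19 ± 0.05 (SE, adjusted p = 0.633), that of Col1a2 0.17 ± 0.05 (adjusted p = 0.697) and that of Col14a1, a fibril-associated chain, 0.13 ± 0.04 (adjusted p = 0.697). Under cyclic loess between arrays 49 of the 51 slopes were above 0.

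Within the regions of dp/+ mice 4 calls were made. In the olfactory bulb Col6a1 rose (1 of 51 members, or 1.96%, against 2.27% of all genes). It was 9.60, 9.25 and 8.90 in dp/+ bulbs and 8.71, 8.78 and 8.75 in +/+ bulbs, a difference of 0.51 ± 0.13 (SE), or 142% of the +/+ level (adjusted p = 0.0334). All 3 dp/+ bulbs were above all +/+ bulbs, but so were both df/+ bulbs, at 9.10 and 8.95, so the level did not follow the number of copies. Col6a2, whose product pairs with that of Col6a1 and whose gene lies next to it, was 8.22, 8.23 and 8.17 in dp/+ and 8.16, 8.23 and 8.17 in +/+ bulbs. The call on Col6a1 held without dp/+ mouse 3 and was lost without any other single mouse, with an estimate of 0.33 (adjusted p = 0.123) without dp/+ mouse 1. Without the other mice adjusted p ran from 0.0566 (either df/+ mouse) to 0.139 (+/+ mouse 1), with 0.0863 without +/+ mouse 2, 0.0606 without +/+ mouse 3 and 0.0741 without dp/+ mouse 2.

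In the cerebellum Lum fell and Col28a1 and Col3a1 rose in dp/+ mice (3 of 51 members, or 5.88%, against 5.54% of all genes). Lum was 6.16, 6.02 and 6.16 in dp/+ mice and 6.65, 6.61 and 6.57 in +/+ mice, a decrease to 70.8% of the +/+ level (-0.50 ± 0.12, adjusted p = 0.0257). Its df/+ values of 6.33 and 6.07 also lay below all +/+ values, so the +/+ cerebellum was the highest of the 3 genotypes. The probe set of Lum is dim, at the 23.8 percentile of all genes, and of the genes in the third decile of brightness 84.0% stood higher in the dp/+ cerebellum (median 0.16). The 16 markers of meningeal fibroblasts stood at -0.22, -0.16 and -0.17 in the dp/+ cerebella and at -0.03 to 0.02 in +/+, and their part was not tested. The call was lost without +/+ mouse 2 (adjusted p = 0.103), dp/+ mouse 1 (0.111) or dp/+ mouse 2 (0.0621), and with the first array of each sample (0.0572).

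Col28a1, a beaded collagen of nerve sheaths, was 7.05, 6.74 and 6.86 in dp/+ and 6.41, 6.55 and 6.50 in +/+ cerebella (0.39 ± 0.11, adjusted p = 0.0382). Col3a1 was 7.73, 7.47 and 7.54 against 7.38, 7.09 and 7.21 (0.35 ± 0.11, adjusted p = 0.0490). In both genes all dp/+ values were above all +/+ values, and neither call held under cyclic loess (adjusted p = 0.0898 and 0.0865). Col28a1 was not called without dp/+ mouse 1 (0.252) or any +/+ mouse (0.0746 to 0.106). Col3a1 was called without +/+ mouse 1 (0.0409) and without no other single mouse (0.0576 to 0.268).

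The cortex and brain stem of dp/+ mice gave no calls. In the cortex 0 of 51 members passed (limma), as did 0.00% of all genes. An unadjusted p below 0.05 was seen for 29 of 51, against 15.8% of all genes, and a difference above 0 for 47 (median 0.27). Of all genes in the brightness range of the collagens 67.8% were above 0 there (median 0.11). The smallest p were those of Col4a6 (0.35 ± 0.10, adjusted p = 0.151), Col22a1 (0.40 ± 0.12, 0.152) and Col4a4 (0.31 ± 0.10, 0.163), a fibril-associated chain between 2 of basement membrane. These were 2 dp/+ cortices against 3. In the brain stem 0 of 51 passed (7 unadjusted, limma), against 0.0150% of all genes (3.56% unadjusted). Fmod had the smallest p there, with 8.93, 9.05 and 9.26 in dp/+ against 8.67, 8.11 and 8.93 in +/+ mice (0.51 ± 0.16, adjusted p = 0.899).

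The F test for genotype effects that differ between regions called 0 of 51 members (3 unadjusted, limma), against 0.216% of all genes (9.82% unadjusted). Fmod had the smallest p (adjusted p = 0.297), followed by Lum (0.329) and Col6a1 (0.475). Fmod differed by 0.51 in the brain stem of dp/+ mice and by -0.31 in their cerebellum.

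**Figure D4:**
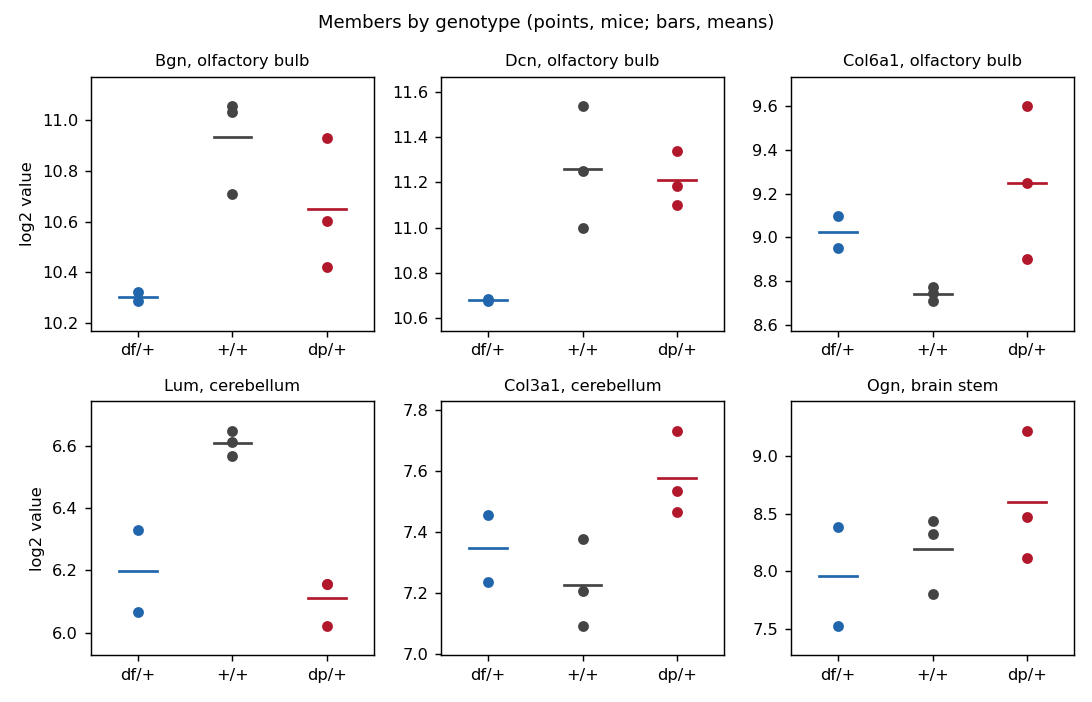
Log2 values (vertical axes, each with its own range) of 6 members in the region named above each panel, by genotype; points are mice and bars are means. Both df/+ bulbs lie lowest for Bgn and Dcn, Col6a1 is lowest in +/+ bulbs, Lum is highest in +/+ cerebella, Col3a1 is highest in dp/+ cerebella, and 1 dp/+ brain stem lies apart for Ogn.

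One brain stem was the highest for 5 of the 7 proteoglycans. In dp/+ mouse 3 Ogn was 9.22, against 7.52 to 8.47 in the 7 other brain stems, and Omd was 6.10 against 4.83 to 5.27. Dcn (11.14), Fmod (9.26) and Lum (6.18) were also highest in this sample, and these 5 genes were lowest in df/+ mouse 1. The 16 markers of meningeal fibroblasts stood at 0.43 in the same sample, against -0.21 to 0.22 in the others, with -0.20 in df/+ mouse 1. The collagen median of that sample was -0.05. Bgn and Prelp were instead highest in dp/+ mouse 2, and lowest in +/+ mouse 2 and df/+ mouse 2 respectively. The part of meningeal cells in the brain stem values was not tested.

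Col8a1 in the cerebellum followed neither genotype nor the other collagens. It was 7.11 in df/+ mouse 1 and 7.18 in dp/+ mouse 2, and between 7.95 and 8.20 in the 6 other mice, of all 3 genotypes. The 8 markers of the choroid plexus stood at -1.77 and -1.10 relative to +/+ in those 2 cerebella and at -0.34 to 0.18 in the 6 others. Within dp/+ cerebella 2 of the 8 choroid plexus markers passed the threshold as lower, Clic6 (by 0.91) and Otx2 (by 0.51), against 3.26% of all genes. Col8a1 itself was not called in df/+ (-0.50 ± 0.21, adjusted p = 0.515) or dp/+ cerebella (-0.31 ± 0.19, adjusted p = 0.263). The part of choroid plexus in these values was not tested.

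**Figure D5:**
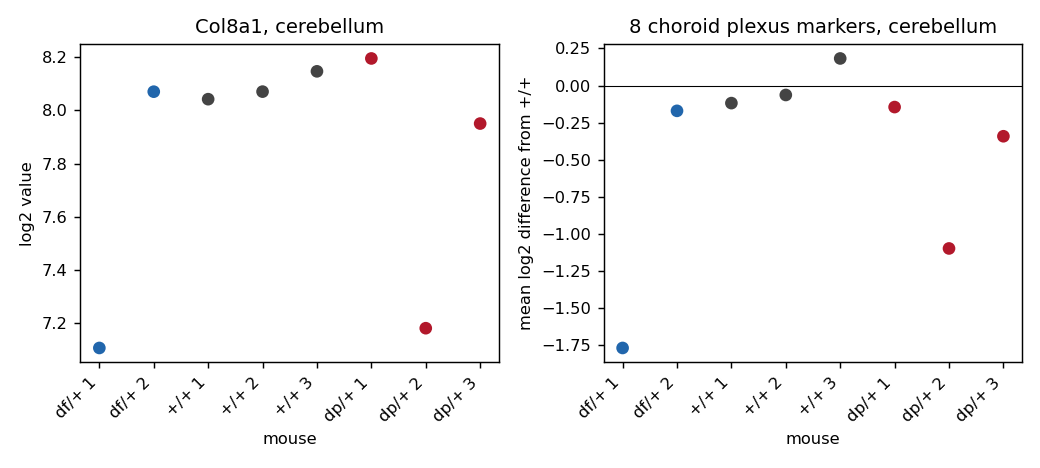
Log2 value of Col8a1 (left) and the mean log2 difference from +/+ of 8 choroid plexus markers (right) in the cerebellum of each of the 8 mice (horizontal axis), coloured by genotype. The samples of df/+ mouse 1 and dp/+ mouse 2 are lowest in both.

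Few genes that build and hold the matrix passed for genotype. Across the brain of dp/+ mice, where 0.381% of all genes fell and 1.48% rose, 1 of 24 genes of collagen synthesis and processing passed, P4ha1, a prolyl hydroxylase subunit, which fell to 77.9% of the +/+ level (-0.36 ± 0.08, adjusted p = 0.0406). In the dp/+ cerebellum 4 of the 24 fell, against 3.26% of all genes. P4ha1 was among them and fell by 0.57, with P3h2, a prolyl 3-hydroxylase, which fell by 0.63. Of 14 basement membrane partners 0 passed across the brain in dp/+ mice, and 1, Lama3, rose in the bulb by 0.42 (adjusted p = 0.0264), where 1.21% of all genes rose. Of 13 interstitial partners and 10 collagen receptors 0 passed across the brain in either genotype. Nyx, 1 of 9 other leucine-rich proteoglycans, rose across the brain in dp/+ mice by 0.49 (adjusted p = 0.0127). Of 16 meningeal fibroblast, 11 endothelial, 8 pericyte and 6 smooth muscle markers, 0 passed across the brain in df/+ or dp/+ mice.

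Many of the members lie beside each other in the genome, 11 pairs with no protein-coding gene between them in the RefSeq order. Col1a2 and Col3a1, chains of types I and III that share fibrils, lie on different chromosomes. Their promoters are shown because they were among the members with the smallest p for copy number or in dp/+ mice.
Col1a2 (chr6:4505368-4505617, plus strand): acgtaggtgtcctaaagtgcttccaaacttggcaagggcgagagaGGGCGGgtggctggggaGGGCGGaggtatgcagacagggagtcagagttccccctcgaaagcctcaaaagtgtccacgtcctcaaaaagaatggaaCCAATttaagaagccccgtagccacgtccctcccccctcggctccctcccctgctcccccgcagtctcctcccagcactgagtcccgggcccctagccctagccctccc
Col3a1 (chr1:45311288-45311537, plus strand): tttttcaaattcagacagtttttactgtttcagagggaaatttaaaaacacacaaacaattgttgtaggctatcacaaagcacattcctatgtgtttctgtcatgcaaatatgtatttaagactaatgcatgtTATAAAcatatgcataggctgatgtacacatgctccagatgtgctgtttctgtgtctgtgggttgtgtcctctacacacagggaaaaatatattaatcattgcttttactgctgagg
Col1a2 holds CCAAT at 109 bases and GGGCGG at 205 and 188 bases before the start, in a window of 62.0% G or C. Col3a1 holds TATAAA at 117 bases and neither other motif, in a window of 35.2% G or C. The dp/+ differences of these genes across the brain were 0.19 and 0.30.

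Neighbours did not always share a pattern. Dcn and Lum are adjacent on chromosome 10, and in +/+ mice Dcn was highest in the bulb and Lum in the cerebellum. Fmod and Prelp are adjacent on chromosome 1, and the bulb was the highest region of Fmod and the lowest of Prelp. Ogn and Omd shared both their highest region, the bulb, and their lowest, the brain stem, as did Col4a1 and Col4a2 the bulb and the cerebellum. Col9a1 and Col19a1 on chromosome 1 had the bulb as highest and as lowest region respectively.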

How the data were processed

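Total RNA of 31 region samples from 8 mice was hybridised to 37 Affymetrix arrays. Per the submitters' processing notes, the values were made with RMA in Affymetrix Expression Console, and the deposited values are on a log2 scale, the base being read from the values. No hybridisation date is given in the sources used here, so a batch could not be tested. Repeated arrays of a sample were averaged. Probe sets with a single gene symbol gave 19938 genes, the brightest standing for each. Tests used limma 3.58.1 in R 4.3.3 with empirical Bayes variances and Benjamini-Hochberg adjustment over all genes, at a threshold of 0.05: regions within +/+ mice with the mouse as a fixed block, genotype across the brain on 1 value per mouse, and genotype within regions with the mouse as a random block (consensus correlation 0.12). Differences from +/+ in df/+ and dp/+ mice share the +/+ controls. Samples of a group are separate mice, and their number limits the precision. The code was tested on simulated data. The members, gene lists and tests were chosen with earlier results of these data known. Any member could be named with its level; for tests, up to 15 members with the smallest p past the threshold for regions and up to 10 for genotypes, otherwise the 3 with the smallest p, and up to 3 genes of each list. Members outside this rule were chosen after their values were seen. Groups of a gene named for its small p often do not overlap, so such separation is no further support for it. Alternatives covered array choice, probe set summary, brightness, scaling, priors, array weights, blocks, and single mice or regions left out.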

Additional observations from a re-analysis of the deposited data

Results flagged for a closer look

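In 3 members every df/+ or every dp/+ sample lay above all +/+ samples in one region and below all +/+ samples in another. The share of all genes with such a pattern was not counted. None of these pairs was tested on its own, and the joint test over all regions and genotypes (limma) did not pass for any of the 3. Fmod was 0.51 above +/+ in the brain stem of dp/+ mice and -0.31 from it in the cerebellum, a gap of 0.82 (joint adjusted p = 0.297). Col6a1 in df/+ mice was above +/+ in the bulb and cerebellum and below it in the cortex and brain stem, with gaps of 0.49 between bulb and cortex, 0.45 between bulb and brain stem, 0.42 between cerebellum and cortex, and 0.38 between cerebellum and brain stem (joint adjusted p = 0.475). Col18a1 in df/+ mice was 0.17 above +/+ in the cerebellum and -0.22 from it in the bulb, a gap of 0.40 (joint adjusted p = 0.620).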

How the results depend on the processing

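Of the recomputed values of single members, none changed direction, 792 kept their side of the threshold, 36 lost it and 16 gained it. Regional calls numbered 24. They were 14 in brighter genes (18 members tested, with 81.3% of all brighter genes called) and 40 over all 8 mice (76.6% of all genes). They were 21 with no replicate block (52.5%) and 16 to 20 with a +/+ mouse left out (43.5% to 52.3%). Array weights raised the counts most: slope 22 (8.11% of all genes), dp/+ across the brain 19 (11.1%), dp/+ cortex 27 (13.0%) and dp/+ cerebellum 22 (19.9%); the cause was not tested. In dp/+ mice across the brain 15 members passed without the brain stem (9.71% of all genes) and 10 with the mouse as a random block over all samples (5.17%). With a mouse left out 0 to 5 passed (0.0552% to 3.78% of all genes). In the dp/+ bulb the count was 0 to 1 with a mouse left out (0.281% to 2.60% of all genes) and 0 with the region fitted alone (0.0602%). In the dp/+ cerebellum it was 0 with first arrays (2.35% of all genes) and 0 in brighter genes (5.37%). The 3 called members were not tested in brighter genes, so their calls were not checked there. The count was 1 under quantile normalisation within regions (1.63%), 1 under cyclic loess (1.63%), 1 with the region fitted alone (3.58%) and 0 to 2 with a mouse left out (0.0301% to 7.02%). In brighter genes 18 of 18 slopes and 13 of 18 dp/+ differences were above 0. The proteoglycan median in df/+ mice was -0.23 without the cortex and -0.19 without df/+ mouse 1. Correlations of same-numbered mice ran from -0.38 to 0.17, and those of other pairs from -0.39 to 0.39. Values were centred within groups of 2 or 3 mice, which ties the correlations to one another, so they cannot settle whether replicate numbers pair the samples. With the replicate block the dp/+ bulb kept a count of 1 (1.77% of all genes) and the dp/+ cerebellum had 2 (4.94%). Under that block 51 slopes and 45 dp/+ differences were above 0 (61.3% and 47.8% of all genes). Signals near the dim end of the array limit what small collagen differences can show.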
